A study of Apis mellifera with 6 samples.

Results

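In the midguts of honey bees kept at 45 °C, 107 genes were read in numbers above the few reads they gave in midguts kept at 35 °C. They are the genes, of 10151 listed, whose mean was below 20 normalized counts at 35 °C, whose lowest value at 45 °C was at least 40, and whose lowest value at 45 °C was at least 2 times their highest at 35 °C. Identifiers starting with Mir, TRNA, CYP, Apid, PGRP or GNBP were left out. The genes were chosen by these values at both temperatures, so their difference between the temperatures is a description and was not tested.

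Poly(A) RNA of 6 honey bee (Apis mellifera) midguts was sequenced, 1 midgut a library, from foragers caught at outbred colonies. In each group 3 bees were kept, at 45 °C in one and at 35 °C in the other, for 4 h according to the methods. The labels of both groups name a feed of sucrose solution with 0.5% DMSO, the solvent of drugs used elsewhere in the study, and no genotype or age. They give the 35 °C libraries as reused from a different series, so series of origin and temperature cannot be told apart, nor is it certain that the 4 h hold for them, and the time may differ too.

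Heat unfolds proteins. In animals the heat shock factor is then freed from chaperones, binds heat shock elements in promoters, and raises genes for chaperones, which hold or refold damaged proteins. Beside these, heat can bring up transcripts that code for no protein: in Drosophila the hsr-omega locus, a long non-coding RNA, is among the best known. The midgut is the part of the bee gut that digests and absorbs food, and its wall is mostly enterocytes with some endocrine, stem and muscle cells.

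A normalized count is the number of reads on a gene divided by a factor for each library, and 1 read was worth between 0.846 and 1.23 of them. It is not divided by gene length, so levels are not compared between genes as amounts of RNA. The libraries held 24690115 to 26921417 reads at 45 °C and 23305758 to 26279130 at 35 °C. The lowest total of any gene in the table was 61 reads, so a gene with few reads at 35 °C is in the table mainly through its reads at 45 °C. In whole midguts, fewer cells of a type and less RNA per cell cannot be told apart.

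The 107 genes were 1.05% of those listed and 10.9% of the 986 genes with a mean below 20 at 35 °C. Of these 986, 121 had a lowest value of at least 40 at 45 °C, 13 of which had too narrow a gap to the highest value at 35 °C. The remaining gene was Mir6046, a microRNA gene that the rule left out for its name. It had 92.3, 62.5 and 57.02 normalized counts at 45 °C and 10.3, 12.7 and 26.5 at 35 °C. All 107 genes passed limma's threshold for higher at 45 °C (adjusted p below 0.05 and a log2 fold change above 1), as did 13.1% of all listed genes, while 4.94% passed it for lower. With DESeq2 and edgeR all 107 were called too, as were 13.6% and 13.2% of the genes tested. The groups of all 107 did not overlap, as was so in this direction for 26.8% of all listed genes. These counts follow from how the genes were chosen.

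Summed over the 107 genes, the libraries held 22855, 17296 and 17388 normalized counts at 45 °C and 1144, 1153 and 1188 at 35 °C. In reads these were 0.0617% to 0.0731% of a library at 45 °C and 0.00518% to 0.00543% at 35 °C. In every library they were a very small share of the reads. Replicate 1 at 45 °C was the highest of its group, through a few genes. The 10 genes with the highest means made up 52.7% of its sum, against 36.1% and 39.1% in replicates 2 and 3. Without these 10, the sums were 10809, 11044 and 10590 at 45 °C and 990.3, 1064 and 1063 at 35 °C, so the 3 heated midguts lay close together.

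**Figure D1:**
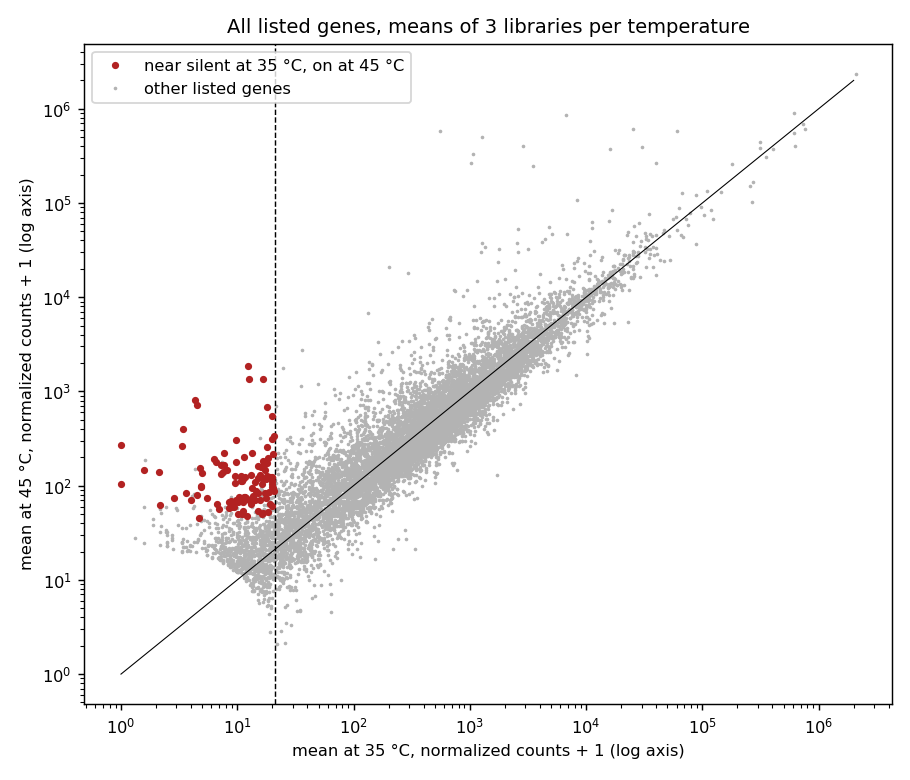
Mean normalized count plus 1 of every listed gene at 45 °C (vertical, log axis) against that at 35 °C (horizontal, log axis), 3 libraries each. Red points are the 107 genes, grey points the others; the dashed line marks a mean of 20 at 35 °C and the solid line equal means. The red points reach a mean of 1855 at 45 °C, far below the highest grey points.

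Means at 45 °C ran from 44.0 to 1855, with a median of 107.6 and quartiles of 69.4 and 162.7. Means at 35 °C ran from 0 to 19.7, with a median of 10.4. The ratio of the means had a median of 10.3 and a range of 2.94 to 245 over the genes with any read at 35 °C. It was at least 10 in 56 genes, at least 50 in 11 and below 5 in 13. The fitted log2 fold change on log2(value + 1) had a median of 3.31 (quartiles 2.59 and 4.34), beside 0.75 for the 854 other genes low at 35 °C and -0.01 for all listed genes. Adding 1 shrinks the change of genes this low. Reads at 35 °C were few, with a median of 36 a gene over the 3 libraries, so a ratio of means carries the counting error of those reads.

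Only 3 genes had a mean of 1000 or more at 45 °C, and the table of RefSeq genes of assembly Amel_HAv3.1 gives each of them as protein coding. LOC102655202 had 3096, 1278 and 1189 normalized counts at 45 °C and 26.1, 2.54 and 5.298 at 35 °C, with means of 1855 ± 1076 at 45 °C and 11.3 ± 12.9 at 35 °C (± SD of 3 libraries). LOC552096 had 1725, 952 and 1401 normalized counts at 45 °C and 18.7, 11.8 and 4.41 at 35 °C, with means of 1359 ± 388 at 45 °C and 11.6 ± 7.12 at 35 °C. LOC100577242 had 2005, 1027 and 983 normalized counts at 45 °C and 28.9, 5.92 and 12.4 at 35 °C, with means of 1339 ± 578 at 45 °C and 15.7 ± 11.9 at 35 °C. In all 3 genes replicate 1 was the highest library at either temperature, and the lowest heated midgut was at least 34.0 times the highest midgut at 35 °C. The ratios of means were 164, 117 and 85.1. That of LOC102655202 rests on replicate 1 of both groups: it was 109 without replicate 1 at 45 °C and 473 without replicate 1 at 35 °C. The ratios of LOC552096 and LOC100577242 were 101 and 63.9 without replicate 1 at 45 °C, and 167 and 146 without replicate 1 at 35 °C.

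The next 15 genes had means between 200 and 1000 at 45 °C. LOC410884, protein coding, had 521, 1175 and 756 normalized counts at 45 °C and 7.46, 2.54 and 0 at 35 °C, the largest ratio of means, 245, or 644 without replicate 1 at 35 °C. Replicate 1 was its lowest heated midgut, unlike in the 3 leading genes. LOC725041, protein coding, had 1602, 207 and 355 normalized counts at 45 °C and 1.87, 4.23 and 4.41 at 35 °C. Its heated midguts differed by 7.75 times, and its ratio of means was 80.2 without replicate 1 at 45 °C and 206 with it. LOC107964072, a long non-coding RNA, had 694, 532 and 823 normalized counts at 45 °C and 13.99, 16.1 and 21.2 at 35 °C, a ratio of 39.98 that no single library moved by 1.5 times. LOC102656472, also a long non-coding RNA, had 1097, 227 and 301 normalized counts at 45 °C and 28.9, 17.8 and 10.6 at 35 °C, and its mean at 45 °C was 264 without replicate 1 and 542 with it. LOC107964472, which was not found in the gene table, had 577, 179 and 451 normalized counts at 45 °C and 1.87, 0 and 5.298 at 35 °C, so 1 of the midguts at 35 °C gave no read on it. Its ratio of means was 169, or 432 without replicate 3 at 35 °C. LOC100577936, protein coding, had 349.6, 377 and 285 normalized counts at 45 °C and 6.53, 10.2 and 42.4 at 35 °C. The last of these values was the highest of any of the 107 genes at 35 °C, and without it the ratio of means was 40.4 in place of 17.1. LOC107965623, not found in the table, had 379, 299 and 252 normalized counts at 45 °C and 19.6, 17.8 and 19.4 at 35 °C, with little spread at 35 °C.

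The other 8 genes of this range were less high. LOC107964407 had 176, 277 and 464 normalized counts at 45 °C and 15.9, 5.08 and 5.298 at 35 °C, and LOC102654992, a long non-coding RNA, 177, 229 and 373 at 45 °C, against 0.933, 2.54 and 3.53 at 35 °C. In both, replicate 3 was highest at 45 °C, which shows that the heated bees did not keep 1 order over genes. LOC107964266 had 164, 351 and 248 normalized counts at 45 °C and 20.5, 13.5 and 16.8 at 35 °C. LOC107964253 had 149, 339.6 and 113 normalized counts at 45 °C and 4.66, 17.8 and 8.83 at 35 °C. Replicate 2 was highest at 45 °C in both of these. LOC102654024 had 275, 201 and 193 normalized counts at 45 °C and 5.595, 11.8 and 19.4 at 35 °C. LOC107964900 had 212, 157 and 299 normalized counts at 45 °C and 3.73, 8.46 and 7.95 at 35 °C. LOC107964406 had 214, 223 and 204 normalized counts at 45 °C and 24.2, 10.2 and 23.8 at 35 °C, which placed it near the ceiling of 20 on the mean at 35 °C. The eighth, LOC100578757, gave no read at 35 °C. Apart from LOC102654992, these 8 genes were not found in the gene table. Of all 18 genes with a mean of at least 200, replicate 1 was highest in 9 at 45 °C. Over the 105 genes with reads at 35 °C, leaving out 1 library moved the ratio of means by more than 1.5 times in 10 genes for a library at 45 °C and in 28 for a library at 35 °C, and in 70 genes none did.

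**Figure D2:**
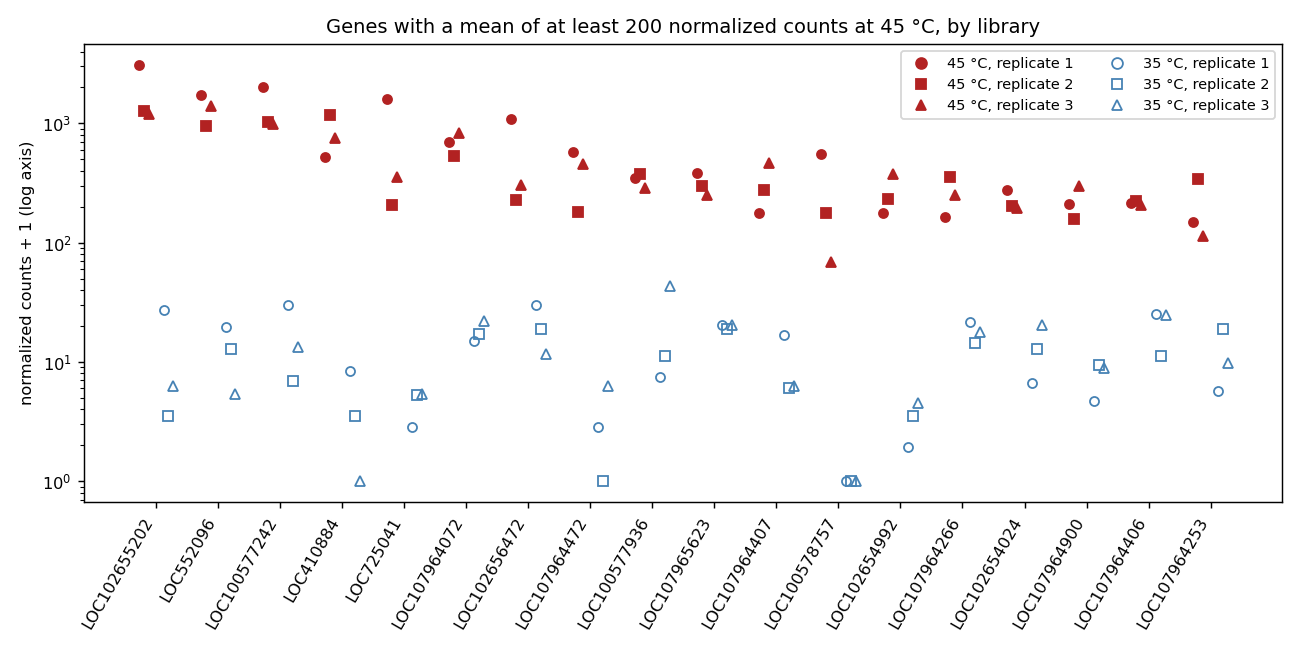
Normalized counts plus 1 (vertical, log axis) in each library for the 18 genes with a mean of at least 200 at 45 °C, in falling order of that mean. Filled red marks are the 3 midguts at 45 °C and open blue marks the 3 at 35 °C, with 1 mark shape for each replicate number; LOC725041 spans 207 to 1602 at 45 °C, while LOC107964406 spans 204 to 223.

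A further 40 genes had means between 100 and 200 at 45 °C, with single values of 42.0 to 344 at 45 °C and 0 to 27.4 at 35 °C. Their ratios of means had a median of 11.3 and a range of 5.44 to 245. Among them was the 1 gene whose symbol is more than a number, Y-y, a gene of the yellow family, which is known in Drosophila for cuticle pigmentation. Y-y had 135, 118 and 143 normalized counts at 45 °C and 8.39, 4.23 and 6.18 at 35 °C, with means of 132 ± 12.8 at 45 °C and 6.27 ± 2.08 at 35 °C (± SD of 3 libraries), a ratio of 21.1. The heated midguts differed little in Y-y, by 1.21 times at most. The gene table overlaps it with LOC100578965, a long non-coding RNA, which had 13.5, 101 and 150.1 normalized counts at 45 °C and 42.9, 60.1 and 69.8 at 35 °C. That gene was not called by limma (log2 fold change 0.08 ± 0.80 (SE), adjusted p = 0.95), and its groups overlapped. The last 49 genes had means below 100 at 45 °C, with single values of 40.01 to 130.04 at 45 °C and 0 to 27.9 at 35 °C, and a median ratio of 6.72.

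At the low end, 2 genes had no read at all at 35 °C. LOC100578757 had 553, 177 and 68.02 normalized counts in the heated midguts. LOC107964809 had 59.1, 141 and 109. With a floor of 3 reads for each library at 35 °C, LOC100578757 was at least 99.9-fold higher at 45 °C and LOC107964809 at least 38.7-fold higher. The bound of the first leans on replicate 1, since its mean at 45 °C was 123 without that library and 266 with it. With both genes at their bounds, the median ratio of means over all 107 was 10.5. LOC724464, a protein-coding gene, had 2 reads at 35 °C, both in replicate 3, and 186, 100 and 146 normalized counts at 45 °C and 0, 0 and 1.77 at 35 °C. The ratio of its pooled reads was 242, with a 95% interval of 66.6 to 2007 that covers counting error only (Clopper-Pearson, on the split of the reads). In all, 8 of the 107 genes had at least 1 library at 35 °C with no read, and in 79 of them no library at 35 °C reached 20.

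The genes just inside and just outside each of the 3 limits differed by little. On the mean at 35 °C, LOC100577936, LOC107965348 and LOC107964406 were inside at 19.7, 19.6 and 19.4. LOC107965348 had 117, 92.01 and 52.02 normalized counts at 45 °C and 23.3, 15.2 and 20.3 at 35 °C. Just outside, at 20.3, 20.4 and 20.7, were 3 genes that met the other limits. LOC412306 had 134, 86.3 and 118 normalized counts at 45 °C and 16.8, 20.3 and 23.8 at 35 °C. LOC107965720 had 534, 841 and 728 normalized counts at 45 °C and 19.6, 19.5 and 22.1 at 35 °C, values that would place it among the 10 highest. LOC102656332 had 64.02, 166 and 86.03 normalized counts at 45 °C and 23.3, 18.6 and 20.3 at 35 °C.

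The floor of 40 and the gap of 2 times cut through genes of low values. LOC413215 was inside the floor with 75.1, 71.6 and 40.01 normalized counts at 45 °C and 17.7, 10.2 and 8.83 at 35 °C. LOC107964956 had 40.6, 77.2 and 58.02 normalized counts at 45 °C and 3.73, 10.2 and 9.71 at 35 °C. LOC102654086 had 40.6, 101 and 107 normalized counts at 45 °C and 2.798, 5.08 and 0 at 35 °C. Each had only 1 heated midgut near the floor. LOC100578261 was outside with 41.9, 39.8 and 60.02 normalized counts at 45 °C and 3.73, 13.5 and 15.01 at 35 °C. LOC107965217 had 59.1, 39.8 and 40.01 normalized counts at 45 °C and 5.595, 4.23 and 6.18 at 35 °C. LOC726898 had 55.4, 38.6 and 56.02 normalized counts at 45 °C and 1.87, 9.31 and 12.4 at 35 °C. These fell short by less than 2 normalized counts, in replicate 2 at 45 °C each time. On the gap, LOC102655731 was inside with 41.9, 57.9 and 49.02 normalized counts at 45 °C and 13.99, 12.7 and 19.4 at 35 °C. LOC102656891 had 75.1, 47.7 and 55.02 normalized counts at 45 °C and 21.4, 16.1 and 19.4 at 35 °C. Their lowest heated values were 2.15 and 2.22 times their highest values at 35 °C, and that of LOC107965348 was 2.23 times. LOC102656798 was outside at 1.99 times, with 56.6, 40.9 and 43.01 normalized counts at 45 °C and 20.5, 11.001 and 12.4 at 35 °C. LOC412825 had 40.6, 44.3 and 47.02 normalized counts at 45 °C and 5.595, 10.2 and 21.2 at 35 °C. LOC100577939 had 40.6, 47.7 and 53.02 normalized counts at 45 °C and 21.4, 16.9 and 21.2 at 35 °C.

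The 3 heated bees differed from each other in these genes, most in those with the highest means. The rule set a floor under every heated value, which left little room for spread in genes with low means. The rise of spread with the mean thus follows in part from how the genes were chosen, and it was not tested. The highest value at 45 °C was a median of 1.69 times the lowest, more than 2 times in 34 genes and less than 1.5 times in 43. The largest ratios were 8.13 in LOC100578757, 7.75 in LOC725041 and 4.83 in LOC102656472, each with replicate 1 highest. The smallest were in LOC107966106, LOC100577978 and LOC100578814. LOC107966106, a long non-coding RNA, had 199, 193 and 199 normalized counts at 45 °C and 16.8, 18.6 and 16.8 at 35 °C. LOC100577978, also a long non-coding RNA, had 52.9, 52.3 and 54.02 normalized counts at 45 °C and 7.46, 11.8 and 11.5 at 35 °C. LOC100578814, protein coding, had 83.7, 79.5 and 82.03 normalized counts at 45 °C and 19.6, 15.2 and 14.1 at 35 °C. In these 3 genes the heated midguts differed by no more than 1.05 times.

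Among the 18 genes with a mean of at least 200 at 45 °C, the coefficient of variation of the heated midguts (SD over mean) had a median of 39.8%, beside 12.2% for the 4746 other genes with means of 200 to 2000 and 17.3% for the 515 of those called higher. Beside genes of like mean and like ratio of means outside the 107, the difference was smaller or turned in each of the 4 ranges that held at least 4 such genes. With ratios of 2 to 5 and means of 40 to 100 the medians were 13.9% in 13 of the 107 and 21.9% in 91 others. With ratios of 5 to 10 and means of 100 to 300 the medians were 28.4% in 12 of the 107 and 26.5% in 31 others. With ratios of 10 to 20 and means of 300 to 2000 they were 17.4% in 2 of the 107 and 26.3% in 23 others, and with ratios over 20 in that range of means 47.8% in 9 and 34.1% in 4. For means of 100 to 200 the medians were 30.2% in 40 of the 107 genes and 17.3% in 1172 others. For means of 70 to 100 they were 28.1% in 21 and 19.9% in 413. For means of 40 to 70 the order turned, with 14.1% in 28 and 17.5% in 346. In the ranges set by mean alone, the other genes were likewise only those with every heated value at least 40. They did not have to meet the gap of 2 times that the rule asked of the 107. The rule thus bears on these spreads, and their differences were not tested. Which bee was highest varied: replicates 1, 2 and 3 at 45 °C were highest in 42, 33 and 32 of the 107 genes, beside 33.3%, 33.6% and 33.1% of all listed genes. At 35 °C they were highest in 40, 36 and 31.

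**Figure D3:**
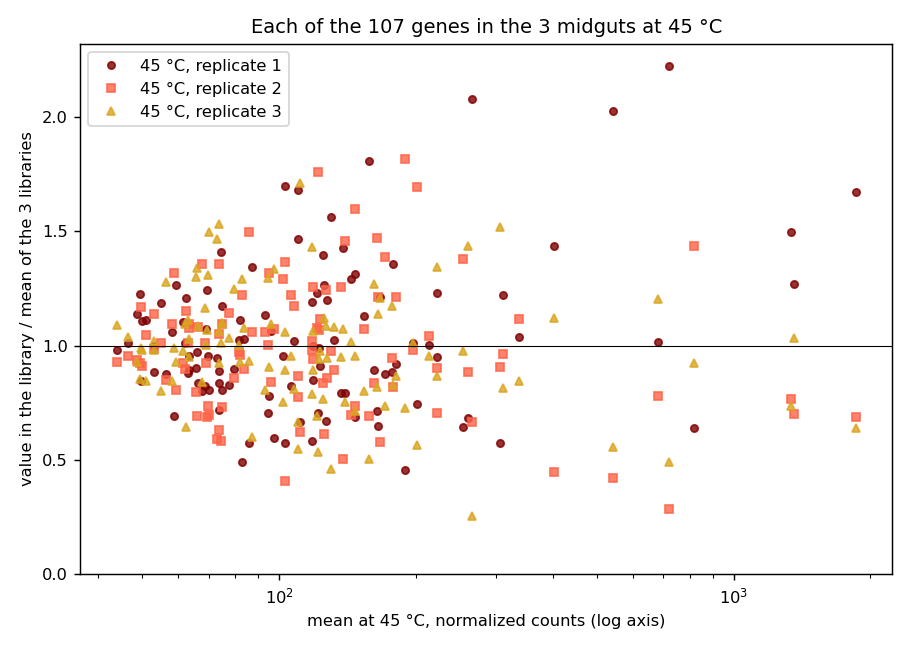
For each of the 107 genes, the value in each of the 3 midguts at 45 °C divided by the mean of the 3 (vertical), against that mean in normalized counts (horizontal, log axis). Marks on the line at 1 equal the mean; replicate 1 stands furthest above it in LOC725041, where the midguts differed by 7.75 times.

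Whether a gene is protein coding or a long non-coding RNA was not part of the rule, although it left out microRNA and tRNA genes and some other gene families by their names. By the gene table, 44 of the 107 were protein coding (41.1%, Wilson 95% interval 32.3% to 50.6%), 28 were long non-coding RNAs (26.2%) and 35 (32.7%) were not found in it. The other 854 genes low at 35 °C had a similar mix, with 47.4% protein coding, 24.1% long non-coding RNA and 28.0% not found. The genes called higher at 45 °C that were not among the 107 were 77.0% protein coding and 9.02% long non-coding RNA, close to the 83.4% and 7.60% of all listed genes. These shares, and the interval, count genes not found as not protein coding, though their type is unknown. The interval also treats the genes as independent draws, though the rule picked them and some overlap or adjoin each other. Of the genes found, protein-coding ones were 61.1% of 72 among the 107 and 65.9% of 615 others low at 35 °C. They were 87.9% of 1068 others called higher and 91% of all 9300. All listed genes still held 36 microRNA and 12 tRNA genes. No test was made of these shares, and the genes carry no descriptions in the files used, so no function is given for them.

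The highest of the 107 genes were protein coding, and below them many were not found in the table. All 3 with a mean of at least 1000 at 45 °C were protein coding. So were 3 of the 15 with means of 200 to 1000, beside 3 long non-coding RNAs and 9 not found. Of the 40 with means of 100 to 200, 13 were protein coding, 13 long non-coding RNAs and 14 not found. For the 49 below 100 these numbers were 25, 12 and 12. The median mean at 45 °C was 85.0 in protein-coding genes, 107 in long non-coding RNAs and 121 in genes not found in the table. The median ratios of means were 8.45, 9.36 and 12.5. The protein-coding genes summed to 12893, 8768 and 8368 normalized counts at 45 °C and 511, 468 and 499.7 at 35 °C. The long non-coding RNAs summed to 4421, 3491 and 4270.5 at 45 °C and 271, 376 and 351 at 35 °C. Gene models with a single transcript made up 61.4% of the 44 protein-coding genes. This share was 50.6% in the other protein-coding genes low at 35 °C and 48.1% in all those listed. It was 82.1% of the 28 long non-coding RNAs, beside 64.6% of the others low at 35 °C and 61.1% of all those listed.

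**Figure D4:**
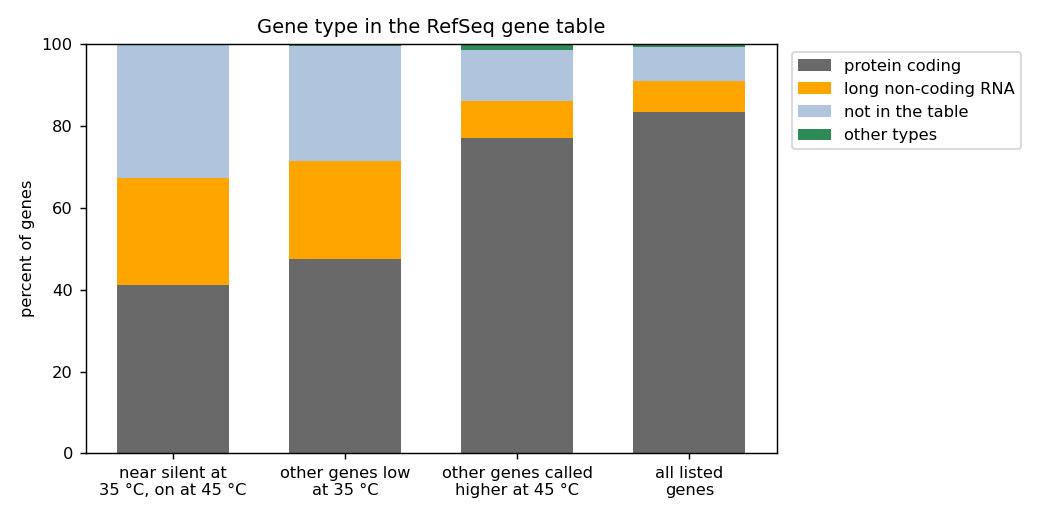
Share of genes (percent) that the RefSeq gene table gives as protein coding, long non-coding RNA or another type, or does not hold, for the 107 genes, the other genes low at 35 °C, the other genes called higher at 45 °C and all listed genes. Protein-coding genes are 41.1%, 47.4%, 77.0% and 83.4% of them.

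The order of genes on the chromosomes of Amel_HAv3.1 places 72 of the 107 genes. The nearest listed genes on either side, 134 in all beside the 107 themselves, were mostly not called by limma: 19 (14.2%) were higher at 45 °C and 8 (5.97%) lower. With scaling by library size alone, 12 were higher. Neighbours of the other genes low at 35 °C were higher in 15.2% and those of all listed genes in 12.0%. The median log2 fold change of the 134 was 0.28. A larger share of the genes that overlap in span was called. Of the 72 genes, 36 overlap a listed gene, and among the 35 overlapped genes outside the 107, 11 were higher (31.4%) and 0 lower by limma, nor were any lower by DESeq2 or edgeR (3 at an unadjusted p under 0.05). With scaling by library size alone 7 were higher and 1 lower, and 8 to 10 were higher with each library left out. The other genes low at 35 °C overlapped genes of which 16.1% were higher, and all listed genes 12.3%. The 35 had a median log2 fold change of 0.63, and it was above 0 in 30 of them. These shares were not tested. The annotation has no strand here and the sources used here do not say whether reads were counted by strand, so reads of overlapping genes cannot be told apart.

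The overlaps were mainly between a long non-coding RNA and a protein-coding gene. Of the 28 long non-coding RNAs, 23 (82.1%) overlap a protein-coding gene, beside 72.7% of those among the other genes low at 35 °C and 67.2% of all listed. The gene near silent at 35 °C usually had the fewer reads of the pair. Its mean at 45 °C was a median of 9.25% of that of the gene it overlaps over 37 pairs, under 10% in 19 pairs and above the partner in 7. LOC102656472, a long non-coding RNA with 1097, 227 and 301 at 45 °C, overlaps LOC413596, which had 13209.6, 4557 and 6620.2 normalized counts at 45 °C and 1952, 1657 and 1223 at 35 °C (log2 fold change 2.22 ± 0.37 (SE), adjusted p = 0.00346, limma). Replicate 1 was the highest and replicate 2 the lowest heated midgut in both, and at 35 °C replicate 1 was highest and replicate 3 lowest in both.

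Several of these genes lay around LOC725800, a protein-coding gene. It had 767, 893 and 2164 normalized counts at 45 °C and 45.7, 512 and 55.6 at 35 °C and was higher at 45 °C (log2 fold change 3.37 ± 0.88 (SE), adjusted p = 0.0197, limma). That call was lost without replicate 3 at 45 °C (adjusted p = 0.0685), without replicate 1 or 3 at 35 °C (0.0585 and 0.0609) and with edgeR (0.0528). It is overlapped by the long non-coding RNAs LOC102653731, with 68.9, 116 and 169 normalized counts at 45 °C and 3.73, 25.4 and 1.77 at 35 °C, and LOC107964592, with 73.9, 69.3 and 190.1 normalized counts at 45 °C and 4.66, 17.8 and 7.06 at 35 °C. Further long non-coding RNAs lie there. LOC102653657, beside LOC102653731, had 40.6, 64.7 and 118 normalized counts at 45 °C and 1.87, 31.3 and 2.65 at 35 °C, and LOC102653863, between LOC102653731 and LOC107964592, had 134, 167 and 282 normalized counts at 45 °C and 41.96, 75.3 and 44.1 at 35 °C. All 5 were highest in replicate 3 at 45 °C and highest in replicate 2 at 35 °C, so the same bee led across the locus at each temperature. LOC102653657 was called (3.30, adjusted p = 0.0247), though not without replicate 2 or 3 at 45 °C or 1 or 3 at 35 °C (0.0624 to 0.0843) or with edgeR (0.0540), and so was LOC102653863 (1.81, adjusted p = 0.0059).

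Another 4 overlapped genes of moderate to high counts were higher at 45 °C. LOC410689 is overlapped by LOC552096 and had 369, 229 and 354 normalized counts at 45 °C and 141, 141 and 171 at 35 °C, with a log2 fold change close to the limit of 1 (limma, 1.04, adjusted p = 0.00881). It fell under that limit without replicate 1 or 3 at 45 °C or 1 or 2 at 35 °C (0.92 to 0.996). LOC408649 is overlapped by the even LOC107966106 and had 879, 743 and 989 normalized counts at 45 °C and 234, 301 and 298 at 35 °C (1.64, adjusted p = 0.000449). In LOC408649 and in LOC107966106 the heated midguts were within 1.5 times of each other. LOC725093 had 1871, 1478 and 1708 normalized counts at 45 °C and 443, 769 and 977 at 35 °C (1.27, adjusted p = 0.00958, and 0.95 without replicate 1 at 35 °C). The long non-coding RNA that overlaps it, LOC107964483, had 241, 145 and 147 normalized counts at 45 °C and 5.595, 5.92 and 5.298 at 35 °C. LOC102655600 had 1262, 696 and 800.3 normalized counts at 45 °C and 289, 267 and 392 at 35 °C (1.51, adjusted p = 0.00342), and the protein-coding LOC102655495 over it 68.9, 43.2 and 107 at 45 °C, against 3.73, 0 and 1.77 at 35 °C. Replicate 2 was the lowest heated midgut in all 4 of these genes.

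At lower levels, 4 more overlapped genes were called. LOC102654775, a long non-coding RNA under LOC100577936, had 25.9, 36.4 and 50.02 normalized counts at 45 °C and 4.66, 1.69 and 0 at 35 °C (limma, 3.90, adjusted p = 0.00485). Its highest heated midgut was replicate 3, where LOC100577936 was lowest. LOC408465 had 84.9, 133 and 66.02 normalized counts at 45 °C and 22.4, 24.5 and 33.6 at 35 °C (1.74, adjusted p = 0.00569), and LOC410520, which overlaps it, 284, 109 and 79.03 at 45 °C, against 12.1, 16.9 and 15.9 at 35 °C. Replicate 1 was far above the others in LOC410520 alone, and its ratio of means rests on that library. LOC102654944 had 123, 70.4 and 129 normalized counts at 45 °C and 28.9, 55.003 and 38.8 at 35 °C (1.37, adjusted p = 0.0165), and LOC100577444 105, 43.2 and 75.03 at 45 °C, against 4.66, 12.7 and 10.6 at 35 °C. The call of LOC102654944 was lost without replicate 1 or 3 at 45 °C (adjusted p = 0.0568 and 0.0602). LOC102656571 had 25.9, 44.3 and 34.01 normalized counts at 45 °C and 21.4, 11.001 and 10.6 at 35 °C (1.26, adjusted p = 0.0424), and LOC725082 55.4, 45.4 and 49.02 at 45 °C, against 14.9, 18.6 and 13.2 at 35 °C. The call of LOC102656571 was lost with any heated midgut, or replicate 2 or 3 at 35 °C, left out (0.0541 to 0.124).

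Overlap did not always go with a call. LOC100577978 overlaps LOC411277, which had 3689.6, 3711 and 3996 normalized counts at 45 °C and 6339, 6236 and 6838 at 35 °C, lower at 45 °C but short of the fold limit (log2 fold change -0.77 ± 0.11 (SE), adjusted p = 0.00187, limma). The lowest value of LOC411277 at 35 °C was above its highest at 45 °C. Ecr, the receptor of the moulting hormone ecdysone, had 10852, 10565 and 13739.7 normalized counts at 45 °C and 5908, 7418 and 7309.9 at 35 °C (0.77, adjusted p = 0.00833, also short of the limit). The long non-coding RNA LOC107964817, which overlaps Ecr, had 49.2, 128 and 80.03 normalized counts at 45 °C and 10.3, 13.5 and 16.8 at 35 °C. It had few reads beside Ecr in every library.

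**Figure D5:**
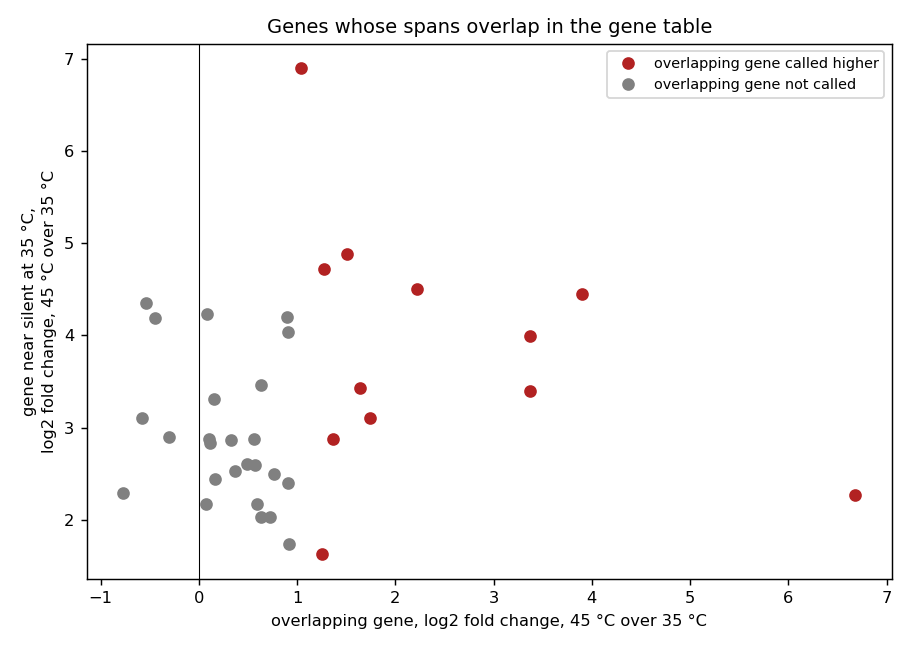
Log2 fold change, 45 °C over 35 °C on log2(value + 1), of each of the 107 genes that overlaps a listed gene outside them (vertical) against that of the overlapped gene (horizontal). Red points are overlapped genes called higher by limma (11 of 35 genes, LOC725800 as 2 points) and grey points those not called; the point furthest right is LOC102654968 at 6.68.

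A few of the 107 genes lay side by side, 8 genes in 4 pairs. LOC100578814 and LOC102654936 overlap each other, next to a much changed gene. LOC102654968, a protein-coding gene, is overlapped by LOC100578814 and adjoins LOC102654936. It had 23989, 21031 and 17254 normalized counts at 45 °C and 216, 181 and 204 at 35 °C and had the largest log2 fold change of any neighbour or overlapped gene outside the 107 (log2 fold change 6.68 ± 0.15 (SE), adjusted p = 5.74e-07, limma). LOC100578814 had only 0.394% of its mean at 45 °C, and LOC102654936 had 65.2, 55.7 and 44.01 normalized counts at 45 °C and 3.73, 0.846 and 13.2 at 35 °C. LOC102654968 and LOC102654936 were both highest in replicate 1 and lowest in replicate 3 at 45 °C. On the other side of LOC100578814, LOC552725 was also higher, with 122, 101 and 99.03 normalized counts at 45 °C and 36.4, 27.9 and 37.1 at 35 °C (1.64, adjusted p = 0.00182).

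LOC102654992 and LOC102655102 form another pair. LOC102655102, protein coding, had 71.4, 68.2 and 99.03 normalized counts at 45 °C and 2.798, 4.23 and 3.53 at 35 °C, and the next gene, LOC102654959, had 251, 571 and 166 normalized counts at 45 °C and 24.2, 33.002 and 25.6 at 35 °C (log2 fold change 3.35 ± 0.43 (SE), adjusted p = 0.0012, limma). Replicate 3 was the highest heated midgut in both genes of the pair, and replicate 2 in LOC102654959. LOC100577242, one of the 3 highest genes, adjoins LOC725664, which had 43.1, 40.9 and 48.02 normalized counts at 45 °C and 0.933, 7.62 and 2.65 at 35 °C. The fourth pair was of long non-coding RNAs. LOC107965335 had 97.3, 132 and 77.03 normalized counts at 45 °C and 12.1, 20.3 and 23.8 at 35 °C and LOC107965336 had 175, 105 and 96.03 normalized counts at 45 °C and 2.798, 22.8 and 3.53 at 35 °C. Both overlap LOC551737, with 558, 356 and 328 normalized counts at 45 °C and 137, 249 and 289.6 at 35 °C, which was not called (0.90, adjusted p = 0.0566).

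LOC102655202, the highest of the 107 genes, adjoins LOC100577882, a protein-coding gene. LOC100577882 had 3246, 1328 and 732 normalized counts at 45 °C and 43.8, 14.4 and 12.4 at 35 °C (log2 fold change 6.13 ± 0.62 (SE), adjusted p = 0.000441, limma). Its mean at 35 °C was 23.5, just over the limit that chose the 107. Replicate 1 was highest at both temperatures in both genes. LOC726592, which lies between LOC107965117 and LOC410229, had the most reads of any neighbour called. It had 107317, 57669.7 and 88366 normalized counts at 45 °C and 12159, 17642 and 20177 at 35 °C (2.33, adjusted p = 0.00101). LOC107965117 had 46.8, 60.2 and 52.02 normalized counts at 45 °C and 12.1, 10.2 and 20.3 at 35 °C and LOC410229 had 55.4, 45.4 and 45.02 normalized counts at 45 °C and 9.33, 7.62 and 10.6 at 35 °C. Both are among the 107, so that their groups lay apart follows from the rule.

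The remaining flanking genes called higher were mostly changed by less than 4 times, each beside 1 of the 107 genes. Next to LOC725041, LOC100578245 had 463, 444 and 446 normalized counts at 45 °C and 261, 201 and 183 at 35 °C (limma, 1.08, adjusted p = 0.00259, and 0.98 without replicate 3 at 35 °C). Next to LOC107964072, LOC100577670 had 1183, 1155 and 1519.5 normalized counts at 45 °C and 587, 535 and 599 at 35 °C (1.15, adjusted p = 0.00108) on one side, and LOC100577827 had 28.3, 32.9 and 44.01 normalized counts at 45 °C and 75.5, 76.2 and 97.1 at 35 °C (-1.23, adjusted p = 0.00945) on the other. So the neighbours of LOC107964072 moved in opposite directions. Next to LOC724295, with 150.2, 237 and 126 normalized counts at 45 °C and 21.4, 11.001 and 18.5 at 35 °C, LOC724250 had 82.5, 127 and 91.03 normalized counts at 45 °C and 31.7, 30.5 and 47.7 at 35 °C (1.43, adjusted p = 0.00707). Next to LOC409455, with 112, 137 and 120 normalized counts at 45 °C and 9.33, 10.2 and 9.71 at 35 °C, LOC725901 had 233, 449.8 and 288 normalized counts at 45 °C and 71.8, 99.01 and 68.9 at 35 °C (1.97, adjusted p = 0.00176). In both of these pairs replicate 2 was the highest heated midgut. Next to LOC102654916, with 153, 109 and 120 normalized counts at 45 °C and 12.1, 8.46 and 15.9 at 35 °C, LOC724991 had 4894, 3703 and 3890.3 normalized counts at 45 °C and 1420.2, 1860 and 1599 at 35 °C (1.35, adjusted p = 0.00081). Next to LOC100578830, with 61.6, 46.6 and 113 normalized counts at 45 °C and 6.53, 3.38 and 3.53 at 35 °C, LOC408890 had 1062, 941 and 926 normalized counts at 45 °C and 423, 463 and 487 at 35 °C (1.09, adjusted p = 0.000789).

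Of low level were 6 more. LOC102655405 had 112, 70.4 and 117 normalized counts at 45 °C and 31.7, 38.1 and 30.02 at 35 °C (limma, 1.53, adjusted p = 0.00486), and its neighbour LOC107965308 56.6, 48.8 and 105 at 45 °C, against 5.595, 1.69 and 1.77 at 35 °C. Replicate 3 led and replicate 2 came last at 45 °C in both. Such orders of the midguts, here and in the other pairs, were not counted over all pairs or tested. LOC102656294 had 62.8, 36.4 and 36.01 normalized counts at 45 °C and 10.3, 5.08 and 14.1 at 35 °C (2.14, adjusted p = 0.00932) beside LOC100577978. LOC102656653 had 11.1, 17.04 and 38.01 normalized counts at 45 °C and 1.87, 0.846 and 1.77 at 35 °C (3.06, adjusted p = 0.00792), and LOC102656730 60.3, 69.3 and 60.02 at 45 °C, against 5.595, 7.62 and 10.6 at 35 °C. LOC102656653 reached only 38.0 at its highest. LOC727166 had 86.2, 114 and 90.03 normalized counts at 45 °C and 55.95, 27.9 and 37.1 at 35 °C (1.29, adjusted p = 0.0134), and LOC107965749 109.6, 126 and 87.03 at 45 °C, against 9.33, 5.92 and 24.7 at 35 °C. LOC409707 had 139, 268 and 381 normalized counts at 45 °C and 102, 73.6 and 112 at 35 °C (1.35, adjusted p = 0.0227), and LOC100576895 203, 127 and 60.02 at 45 °C, against 15.9, 16.9 and 11.5 at 35 °C, with the heated midguts in opposite orders. LOC412476 had 129, 103 and 157 normalized counts at 45 °C and 47.6, 45.7 and 77.7 at 35 °C (1.20, adjusted p = 0.0135), and LOC102656808 101, 149 and 106 at 45 °C, against 10.3, 22.001 and 14.1 at 35 °C. The calls of LOC409707 and LOC412476 were lost with 1 library left out, at adjusted p of 0.0660 to 0.0678 without replicate 2 or 3 at 45 °C or 2 at 35 °C for LOC409707 and 0.0507 without replicate 3 at 45 °C for LOC412476.

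Lower at 45 °C were 7 more flanking genes. LOC408411 had 3793, 3161 and 4212 normalized counts at 45 °C and 10191, 10611 and 11045 at 35 °C (limma, -1.52, adjusted p = 0.000295), and its neighbour LOC102655078 56.6, 53.4 and 43.01 at 45 °C, against 14.9, 18.6 and 18.5 at 35 °C. LOC102654653 had 188, 169 and 194 normalized counts at 45 °C and 429.9, 364 and 396 at 35 °C (-1.10, adjusted p = 0.00135), and LOC107964030 84.9, 158 and 138 at 45 °C, against 9.33, 22.001 and 19.4 at 35 °C. LOC724172 had 2598, 3289.7 and 3021 normalized counts at 45 °C and 4816, 7429.7 and 7432 at 35 °C (-1.12, adjusted p = 0.0042), and LOC411159 159, 77.2 and 141 at 45 °C, against 12.1, 9.31 and 4.41 at 35 °C. In each of these pairs the opposite directions follow from how the genes were picked, the first as called lower and its neighbour by the rule. LOC410960 had 7454, 6899.7 and 5514 normalized counts at 45 °C and 15580.3, 12554 and 14362 at 35 °C (-1.10, adjusted p = 0.00192, and -0.98 without replicate 3 at 45 °C), and LOC410959 73.9, 125 and 86.03 at 45 °C, against 20.5, 16.9 and 19.4 at 35 °C. LOC724685 had 810.1, 988 and 1087 normalized counts at 45 °C and 1614, 2272 and 2176 at 35 °C (-1.06, adjusted p = 0.00339, and -0.95 without replicate 1 at 45 °C or -0.97 without replicate 2 at 35 °C), and LOC102655371 55.4, 63.6 and 70.02 at 45 °C, against 15.9, 20.3 and 18.5 at 35 °C. LOC725135 had 41.9, 71.6 and 84.03 normalized counts at 45 °C and 168, 118 and 138 at 35 °C (-1.13, adjusted p = 0.0204), and LOC100577071 56.6, 68.2 and 65.02 at 45 °C, against 5.595, 5.08 and 14.1 at 35 °C. LOC102655560, next to LOC102655495, was the smallest of the 7. It had 16.004, 11.4 and 16.01 normalized counts at 45 °C and 30.8, 33.002 and 31.8 at 35 °C (-1.10, adjusted p = 0.0298), and its call was lost with any 1 library left out (0.0501 to 0.099). That of LOC725135 was lost without replicate 1 at 45 °C (-0.84 on the log2 scale) and without replicate 1 or 3 at 35 °C (0.0557 and 0.0578).

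None of the 107 genes was a chaperone of the lists used. Of 9 small heat shock protein genes, which keep unfolding proteins from clumping, 8 were higher at 45 °C by limma, and the lowest of their means at 35 °C was 108. All 5 of Hsp90, Hsc70-3, Hsc70-4, Hsc70-5 and Cdc37, which fold client proteins or bring them to a chaperone, were higher, with a median log2 fold change of 3.28 and no mean at 35 °C below 4148. These genes were thus well read at 35 °C already. No heat shock element could be searched for, since promoter sequences were not used here.

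Markers of the cells a midgut sample can hold were few and were read in every library. The 4 midgut markers Vha16, Hbg2, Hbg3 and AGLU2, a proton pump subunit and alpha-glucosidases, were well read at both temperatures. AGLU2 averaged 559274 ± 21530.1 at 45 °C and 612097 ± 54116 at 35 °C (± SD of 3 libraries). By limma, DESeq2 and edgeR 0 of the 4 were called, with 1 higher and 1 lower at an unadjusted p under 0.05 in limma. Of 7 troponin genes, which mark muscle, 0 were higher in limma, DESeq2 and edgeR (0 at an unadjusted p under 0.05). In limma and edgeR 2 were lower, and in DESeq2 1, with sums of 5869 to 7069 at 45 °C and 4676 to 7647 at 35 °C. Of 7 fat body markers 2 were higher, Vg and Hex110, with sums of 1208 to 2045 at 45 °C and 869 to 1292 at 35 °C. HEX70b averaged 148 at 45 °C and 274 at 35 °C and was short of the fold limit (-0.91, adjusted p = 0.0297), the 1 fat body marker lower at an unadjusted p under 0.05. Syt1, Syx1A and brp, taken here as markers of nerve cells, summed to 8359 to 10425 at 45 °C and 4612 to 5744 at 35 °C. At 45 °C Syx1A averaged 8929, Syt1 74.6 and brp 233, so the sum says little about the latter genes. By limma, DESeq2 or edgeR 0 of them were called (2 at an unadjusted p under 0.05, higher). PPO, a haemocyte marker, had 97.3 to 111 at 45 °C and 54.2 to 65.3 at 35 °C. Tk and Apime-ASTA, enteroendocrine peptides, summed to 231 to 537 at 45 °C and 482 to 599.96 at 35 °C, with Tk lower. No marker was at 0, and 0 of the 107 genes were in these lists. PPO and the nerve sum, most of it Syx1A, were higher in each heated midgut than in any midgut at 35 °C. So were 26.8% of all listed genes. Syx1A and brp each showed this alone, but Syt1 did not. Syt1 had 98.5, 70.4 and 55.02 normalized counts at 45 °C and 35.4, 38.1 and 81.2 at 35 °C. The part of these markers in the levels of the 107 genes was not tested.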

How the data were processed

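Poly(A) RNA libraries of 3 midguts at 45 °C and 3 at 35 °C were analysed, grouped by their labels. Per the labels' processing notes the authors used Trimmomatic 0.36, STAR, Subread and DESeq2, with genome build Amel 4.5; annotation release and strand use: not given in the sources used here. Their deposited signal values hold read counts per gene over a size factor for each library. All values were whole multiples of 1 step within 0.01, so reads were recovered. Log2(value + 1) was compared by the trended moderated test of limma 3.58.1 (R 4.3.3), replicate numbers unused, with p-values adjusted by the Benjamini-Hochberg method over 10151 genes. Genes were called at an adjusted p under 0.05 and a log2 fold change over 1 in size. Low genes change less on this scale. Requiring a mean of 1 removed no gene. DESeq2 1.42.0 and edgeR 4.0.16 on recovered reads, other scalings and pseudocounts, libraries left out and other limits were alternatives. P-values measure the spread between single midguts.

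The 107 genes and the gene lists were chosen with earlier results of these data known. Values in each library were printed for genes with 3 or fewer reads at 35 °C, the 10 with the highest means at 45 °C, those nearest each limit, those with the largest and smallest spread at 45 °C, those beside or overlapping each other or a called gene, and, chosen after their values were seen, the next 8 by mean, Y-y, LOC107964817 and the overlapped genes not called. Gene types and order came from the RefSeq table of Amel_HAv3.1, which is not the build of the counts, so no coordinates are given; 9300 of 10151 identifiers (91.6%) matched, and 72 of the 107. That table, as used here, has no strand, descriptions or sequences, so motif searches and groups by description were left out, and chaperones and markers were taken by symbol or from the identifiers of the study.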

Additional observations from a re-analysis of the deposited data

How the results depend on the processing

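All 107 genes were called higher in every alternative fit (scaling, tool, pseudocount, filter, block or library left out), and their groups did not overlap under any of the 3 other scalings, which follows from how they were chosen. With scaling by library size alone, the median gene of the whole table had a log2 fold change of -0.39, against -0.01. It gave 829 genes higher and 1616 lower over all genes, against 1327 and 501, so that 33.9% of calls were higher in place of 72.6%. It left 12 of the 134 flanking genes higher, against 19. Quantile normalization gave 801 genes lower, a share of 57.3% higher among calls, and a median log2 fold change of the 107 of 2.87 in place of 3.31. With a pseudocount of 10 that median was 2.46. The number of genes chosen was 74 with library size alone, 78 with quantile normalization and 109 with TMM factors, and 71 were chosen under all 3. It was 47 and 166 with a mean at 35 °C below 10 and 40, 46 and 168 with a lowest value at 45 °C of at least 80 and 20, and 70 with a gap of 4 times.

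With each library left out in turn, 1177 to 1309 genes were higher and 382 to 545 lower, 18 to 20 flanking genes were higher, the median log2 fold change was 3.24 to 3.35, and 111 to 134 genes were chosen, 38.5% to 43.3% of them protein coding. The median ratio of the highest to the lowest heated midgut was 1.32 to 1.37 with a heated midgut left out, since a ratio over 2 libraries is smaller than 1 over 3. Of 37 called neighbours and overlapped genes, 24 were called with each library left out and 13 were not; library size alone lost 11 of the calls, all higher, and the replicate block 2. Deviations of samples with the same replicate number had correlations of 0.154, 0.0164 and 0.00538, the first being the largest of any pairing. Those of samples with different numbers ran from -0.112 to 0.115. The numbers were not taken as pairs. With the replicate number as a block, 1348 genes were higher and 524 lower, and 107 of the 107. The search for heat shock elements, the groups by description, and neighbours within a set distance or on the same strand were not run, as the gene table used holds no sequence, description or strand. Reads at 35 °C, a median of 36 a gene, limit the ratios of means.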

Other observations

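The same rule turned round, with a mean below 20 at 45 °C, a lowest value of at least 40 at 35 °C and the same gap, gave 7 genes, 1.02% of the 684 genes with a mean below 20 at 45 °C. These genes, too, were chosen by their values, and no test is given. LOC100576573, a long non-coding RNA, had 4.92, 7.95 and 36.0 normalized counts at 45 °C and 87.7, 118 and 132 at 35 °C, so that replicate 3 at 45 °C stood above the other heated midguts. LOC107964004 had 12.3, 23.9 and 17.0 at 45 °C and 103, 61.8 and 123 at 35 °C. LOC725196, protein coding, had 9.85, 5.68 and 8.003 at 45 °C and 48.5, 40.6 and 44.1 at 35 °C. The groups lay well apart in LOC725196, with little spread in either. The other 4, LOC100577712, LOC107964994, LOC107965050 and LOC107964877, had single values of at most 30.0 at 45 °C and at least 40.1 at 35 °C.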
